A study of Mus musculus with 28 samples.

Results

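The subject is a set of 32 mouse germline genes listed as targets of epigenetic silencing. They were followed through reprogramming of fibroblasts to induced pluripotent stem cells (iPSC) with and without UNC0638 (UNC). UNC inhibits the histone H3 lysine 9 methyltransferases G9a and GLP. The label holds only in part: in fibroblasts given doxycycline alone 19 were silent and 6 expressed. There 61.4% of all genes were silent, so silence did not set the 32 apart. The genes came from a list of symbols given for the study and were not picked by a measured value. The list was, however, chosen with earlier results of these data known. All 32 genes were found among the 54071 present in both deposited RNA tables. RNA sequencing covered 18 libraries in 6 groups of 3. In the 12 reprogramming libraries, mouse embryonic fibroblasts from E13.5 to E15.5 embryos received doxycycline at 1 µg/ml alone (DOX), DOX with UNC at 1 µM (DOX_UNC), DOX with 3C (DOX_3C), or DOX with 3C and UNC (DOX_3C_UNC). The 3C mixture combines 250 nM of TGF-b RI Kinase Inhibitor II, 3 µM of CHIR99021 (a GSK3 inhibitor) and 50 µg/ml of L-ascorbic acid. The other 6 libraries were iPSC derived with DMSO (iPSC_DMSO) or with UNC at 1 µM for the first 48 hours (iPSC_UNC). The protocol attached to the iPSC also speaks of a harvest after 48 hours of reprogramming, and no hour of RNA collection is given for the 12 reprogramming libraries.

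All groups came from cells heterozygous for Rosa26-rtTA and Oct4-GFP that carried either 1 copy of a DOX-inducible OKSM allele or a homozygous inducible OKS allele; which library had which allele is not given. Reprogramming took place on irradiated feeder cells. The labels do not say whether replicates were separate cultures, so the p-values may measure only technical spread. Libraries held 10616764 to 20211641 reads in genes in reprogramming and 21592023 to 25408585 in iPSC. Of 10 pluripotent markers, 7 or 8 were silent in each reprogramming group (summed level 47.8 to 168 reads per 1000000 reads in genes, CPM), while all 10 were expressed in iPSC (4542 to 5053 CPM). The 7 fibroblast markers summed to 3178 to 9949 CPM in reprogramming and to 1350 to 2452 CPM in iPSC, where 6 of the 7 were expressed. The 5 primordial germ cell markers summed to 1.63 to 4.47 CPM in reprogramming, with Dppa3 and Prdm14 at 0 reads in all 12 libraries, and to 216 to 274 CPM in iPSC. The 6 macrophage markers summed to 6.97 to 32.3 CPM over the 18 libraries and the 4 Sertoli cell markers to 1.81 to 7.97 CPM.

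Germ cells use genes for piRNAs (small RNAs that silence transposons), for the synaptonemal complex that joins paired chromosomes, and for meiotic recombination, and most of these genes are shut in body cells. A noncanonical Polycomb complex with E2F6, MGA and MAX binds many of their promoters through E2F and E-box motifs, and recruits or acts alongside G9a and GLP, which place H3K9me2, and DNA methyltransferases. Mouse pluripotent cells keep some of these genes at low levels, and loss of that complex, of G9a or of DNA methylation is known to raise others.

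Promoter windows are shown first because the E-box and E2F motifs are the known entry points of that complex. RefSeq promoters of GRCm38.p6 (250 bases before to 50 after each start) were found for 26 of the 32 genes, in 30 windows. An E-box match (CACGTG, which reads the same on both strands) lay in 13 of 26 genes (50.0%), beside 8.09% of all 27025 genes with a window and 8.91% of 17491 protein-coding genes. An E2F match (TCCCGC, or GCGGGA on the other strand) lay in 13 of 26 genes, beside 22.0% of all genes and 28.4% of protein-coding genes. Both lay in 7 of 26 (26.9%), beside 2.32% and 3.10%. No E-box and E2F matches overlapped in these promoters. The windows were also rich in CpG: the median ratio of observed to expected CpG was 0.736, beside 0.384 over all promoters and 0.567 over those of protein-coding genes. A match is a string of letters, not evidence of binding, and the H3K9me2 profiles of the series are not analysed here.

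The 150 bases before 1 RefSeq start are printed for each of 6 genes, on its own strand, with E-box and E2F matches in capitals. That start need not be the outermost one. The Ddx4 window lies wholly, and the Taf7l and Tdrkh windows partly, inside the RefSeq span of the gene. Ddx4 (chr13:112652311-112652460, minus strand), Hormad1 (chr3:95559527-95559676, plus strand) and Sycp3 (chr10:88459437-88459586, plus strand) stand for genes with both motifs. Taf7l (chrX:134476491-134476640, minus strand) and Slc25a31 (chr3:40708721-40708870, plus strand) have an E-box alone in this stretch. Tdrkh (chr3:94413094-94413243, plus strand), which was expressed in every group, has neither. Stag3, not printed here but also expressed in every group, has 1 E-box and 1 E2F match in its 300-base promoter.
Ddx4: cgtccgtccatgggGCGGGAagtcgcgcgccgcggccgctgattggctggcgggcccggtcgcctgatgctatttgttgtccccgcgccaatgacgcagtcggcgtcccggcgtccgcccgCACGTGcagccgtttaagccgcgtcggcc
Hormad1: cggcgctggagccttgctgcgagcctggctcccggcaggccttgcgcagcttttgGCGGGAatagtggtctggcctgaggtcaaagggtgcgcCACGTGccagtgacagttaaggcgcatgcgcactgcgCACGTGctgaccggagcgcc
Sycp3: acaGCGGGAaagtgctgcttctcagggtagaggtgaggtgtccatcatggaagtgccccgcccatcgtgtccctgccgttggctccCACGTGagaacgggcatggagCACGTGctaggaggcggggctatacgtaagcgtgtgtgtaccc
Taf7l: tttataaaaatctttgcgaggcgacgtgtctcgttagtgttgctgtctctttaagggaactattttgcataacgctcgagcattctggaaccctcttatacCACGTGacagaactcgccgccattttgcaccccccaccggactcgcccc
Slc25a31: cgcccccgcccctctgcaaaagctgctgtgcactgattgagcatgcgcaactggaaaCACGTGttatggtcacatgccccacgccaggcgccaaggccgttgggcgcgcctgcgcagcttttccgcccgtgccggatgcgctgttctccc
Tdrkh: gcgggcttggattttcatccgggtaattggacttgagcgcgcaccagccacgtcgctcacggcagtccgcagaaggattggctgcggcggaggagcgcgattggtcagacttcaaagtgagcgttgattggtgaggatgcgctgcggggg

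In these windows Hormad1 and Sycp3 each hold 2 E-boxes and 1 E2F match, and Ddx4 holds 1 of each. The E-boxes of Hormad1 begin 57 and 20 bases before the start used here, and 59 and 22 bases before its other start. Those of Sycp3 begin 64 and 43 bases before the start used, and that of Ddx4 29 bases before it. Of the 14 genes with a window that were silent in all 4 reprogramming groups (defined below), 6 had an E-box and 6 an E2F match; of the other 12, 7 had an E-box and 7 an E2F match. Matches thus occurred in both sets, and no test was made of this split.

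**Figure D1:**
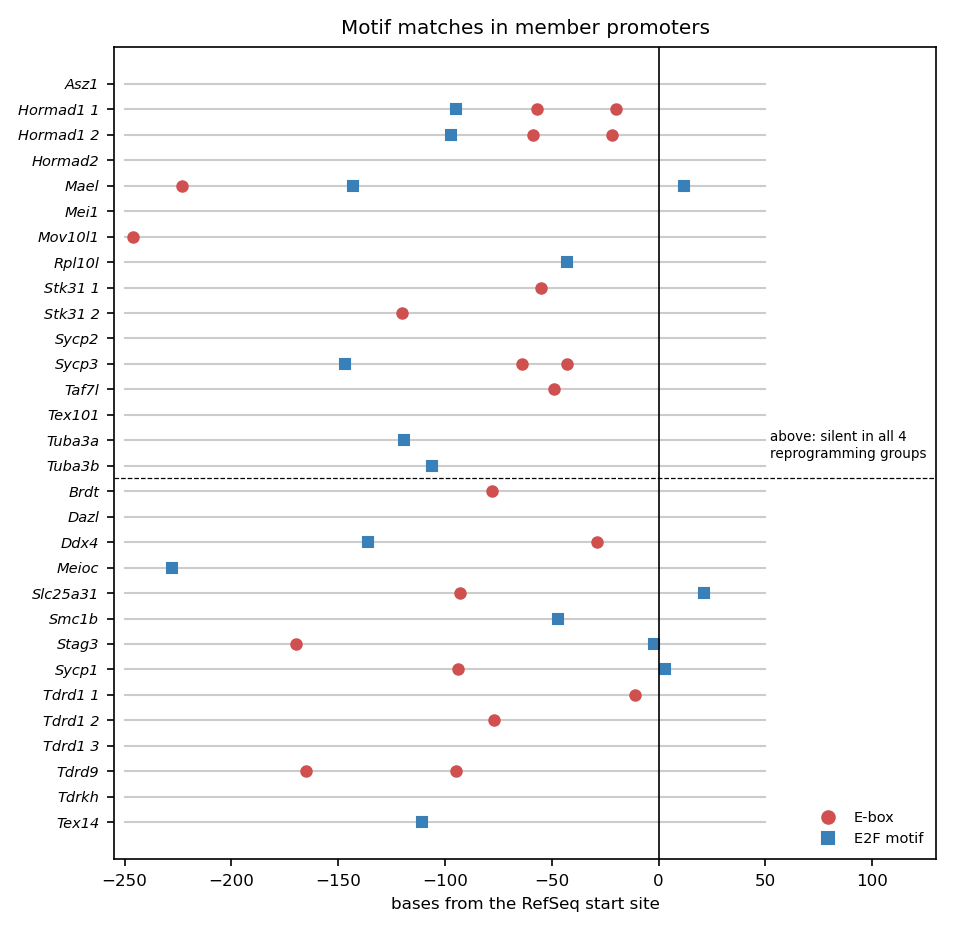
Positions of E-box (red circles) and E2F (blue squares) matches in the 30 member promoters, in bases from the RefSeq start site (x axis); each grey line is a window, and numbers mark genes with more than 1 start. Matches occur both above the dashed line, among the genes silent in all 4 reprogramming groups, and below it.

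A gene was called silent in a group when its mean over 3 libraries was below 0.1 CPM, at a trace level from 0.1 to below 1 CPM, and expressed at 1 CPM or more. In bulk RNA, fewer cells that express a gene and less RNA per cell cannot be told apart. Silent genes numbered 19 of 32 in DOX, 18 in DOX_UNC, 18 in DOX_3C and 17 in DOX_3C_UNC, beside 61.4%, 61.9%, 60.6% and 61.0% of all 54109 genes of that table. In reprogramming the 32 were thus silent no more often than all genes. In iPSC only 2 of 32 were silent, with DMSO and with UNC alike, beside 60.1% and 59.6% of all 54838 genes. Expressed genes numbered 6, 5, 4 and 5 in the 4 reprogramming groups and 26 and 27 in the DMSO and UNC iPSC. No share over all genes was computed for the expressed class. The reprogramming and iPSC tables were deposited separately, so levels across them are set side by side with no test.

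**Figure D2:**
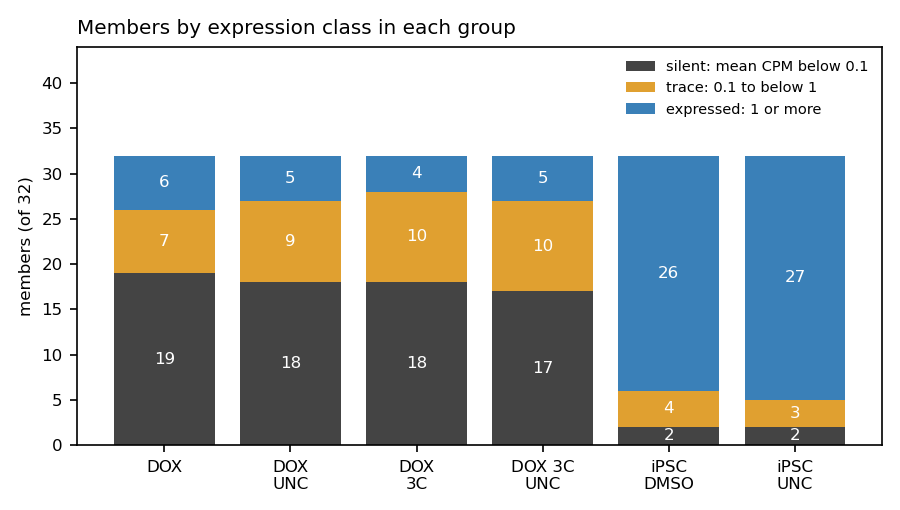
Number of the 32 germline genes that were silent, at a trace level or expressed (stacked bars, labelled with counts) in each group of 3 libraries. The 4 reprogramming groups have 17 to 19 silent genes and the iPSC groups 2.

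The same 16 genes were silent in all 4 reprogramming groups, thus with and without UNC and with and without 3C: Asz1, Dmrt1, Hormad1, Hormad2, Mael, Mei1, Mov10l1, Rpl10l, Spo11, Stk31, Sycp2, Sycp3, Taf7l, Tex101, Tuba3a and Tuba3b. Together they had 8 reads in DOX, 10 in DOX_UNC, 13 in DOX_3C and 9 in DOX_3C_UNC, or 0.0781 to 0.396 CPM per library for all 16 genes summed. In iPSC the same genes had 9083 reads with DMSO (122 to 127 CPM per library) and 8608 with UNC (115 to 125 CPM). For joint counts such as these 16, no share over all genes was computed. Of the 16, 12 were expressed in both iPSC groups. Asz1 and Tex101 reached only a trace level there, and Spo11 and Tuba3b stayed silent in all 6 groups. No read of 6 of them (Asz1, Dmrt1, Mei1, Rpl10l, Spo11 and Tex101) was counted in any of the 12 reprogramming libraries. A count of 0 over a group of 3 allows up to 0.0829 CPM in DOX, 0.0597 in DOX_UNC, 0.0574 in DOX_3C and 0.0764 in DOX_3C_UNC (3 reads over the group's reads; counting error only). The exact two-sided 95% limit for 0 reads is higher, at 0.102 CPM in DOX. At that depth no gene of the DOX group is bounded below the threshold of 0.1 CPM. By the exact limit, 11 of 18 silent genes were bounded in DOX_UNC, 9 of 18 in DOX_3C and 10 of 17 in DOX_3C_UNC. In iPSC 0 of 2 were bounded with DMSO and 1 of 2 with UNC. The other silent genes rest on their mean alone.

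**Figure D3:**
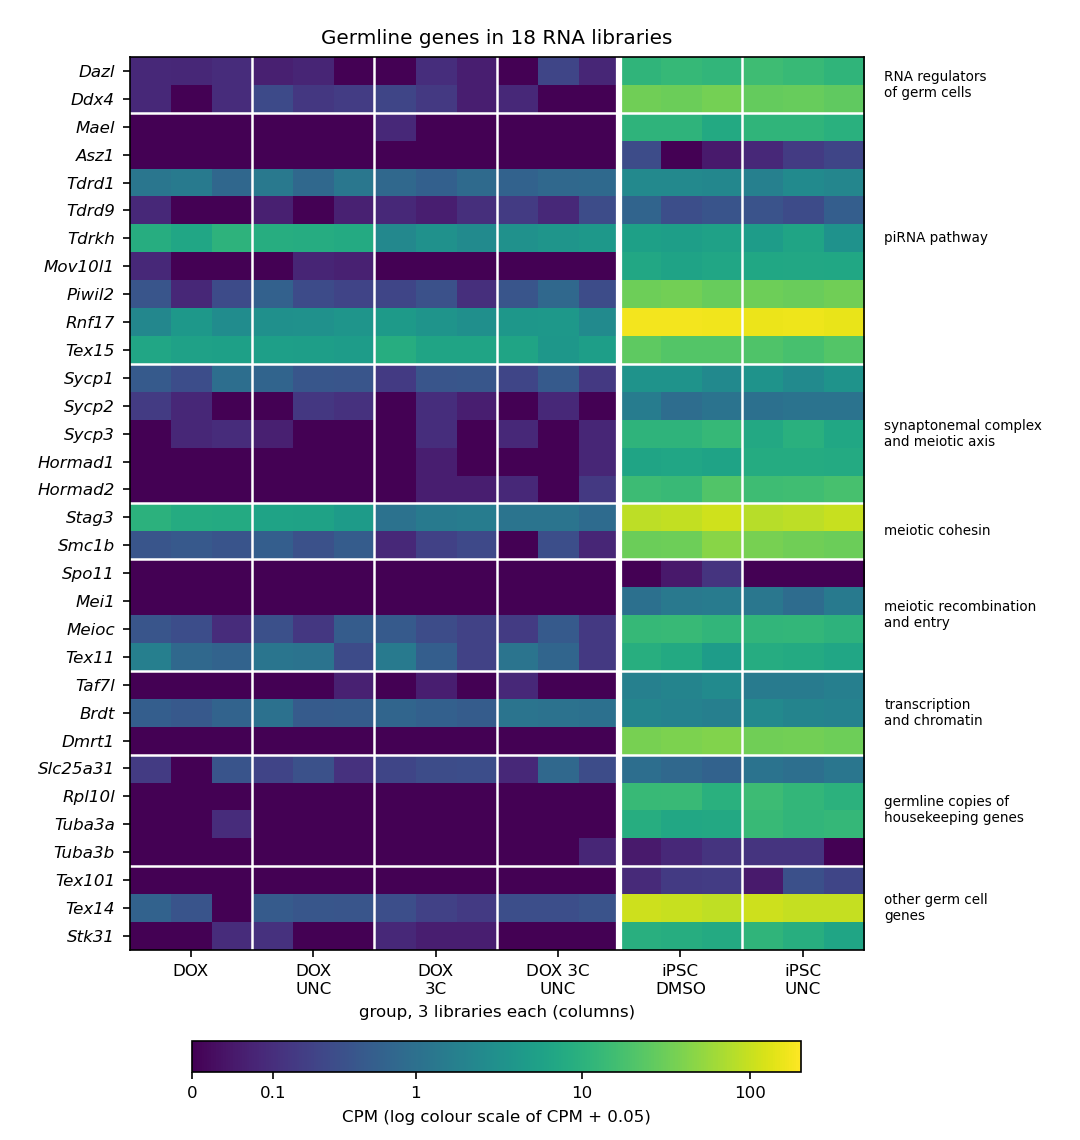
CPM of each germline gene (rows, ordered by role) in each of the 18 libraries (columns, 3 per group) on a logarithmic colour scale. Most rows are dark across the 12 reprogramming libraries and bright in the 6 iPSC libraries, and the 16 genes silent in all reprogramming groups are dark there with and without UNC.

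Few genes changed class with UNC. The class was the same with and without UNC for 30 of 32 genes in DOX, 28 in 3C and 31 in iPSC. No matching share over all genes was computed, and genes without a read in either group could not change. In DOX and in DOX_UNC, 11 of the 32 had 0 reads in all 3 libraries. From DOX to DOX_UNC, 1 of the 9 silent genes with any read in either group left the silent class (Ddx4), beside 10.6% of all genes that could. From DOX_3C to DOX_3C_UNC, 2 of 10 left it (Dazl and Tdrd9), beside 12.1%, and 1 of 14 entered it (Ddx4), beside 5.74%. In iPSC neither Spo11 nor Tuba3b left it with UNC, beside 9.14% of all genes. These shares lie near the background and rest on few reads.

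The RNA regulators Dazl and Ddx4 show how few reads lie behind such moves. Ddx4, the germ cell RNA helicase Vasa (ENSMUSG00000021758, chr13:112598333-112652633), had 1, 0 and 1 reads in DOX and 5, 2 and 3 in DOX_UNC. It had 3, 3 and 1 reads in DOX_3C and 1, 0 and 0 in DOX_3C_UNC. So its counts were higher with UNC in every library without 3C and, with 3C, the groups touched at 1 read in the other direction. Per read in genes, the ratio of DOX_UNC to DOX was 3.6 (exact 95% interval of counting error 0.768 to 33.8) and that of DOX_3C_UNC to DOX_3C was 0.190 (0.00422 to 1.48), and both intervals include 1. Dazl, an RNA-binding regulator of translation (chr17:50279393-50293620), had 0 to 3 reads in each of the 12 libraries. Its DOX_3C_UNC group, with 4 reads against 3 in DOX_3C, crossed the threshold at a ratio of 1.78 (0.301 to 12.1). In iPSC, Dazl stood at 11.4, 13.1 and 11.9 CPM with DMSO and 15.3, 13.2 and 11.2 CPM with UNC, and the groups overlapped. Ddx4 stood at 33.1, 31.2 and 35.0 CPM with DMSO and 28.3, 29.1 and 26.5 CPM with UNC. All UNC iPSC libraries were below all DMSO libraries for Ddx4, but the difference of -0.23 ± 0.07 (log2, SE) had an adjusted p of 0.225 by edgeR's quasi-likelihood test.

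Among the piRNA genes, Mael, Mov10l1 and Asz1 were silent in reprogramming. Mael, a piRNA factor of the germ cell nuage, had 1 read over the 12 libraries, and in iPSC 11.1, 10.9 and 7.67 CPM with DMSO and 11.4, 11.5 and 9.49 CPM with UNC. Mov10l1, the helicase that feeds piRNA precursors, had 0 or 1 read per library, and in iPSC 7.18, 6.18 and 6.62 CPM with DMSO and 6.98, 7.10 and 6.90 CPM with UNC. The iPSC groups overlapped for both genes. Asz1, a mitochondrial piRNA factor, had 7, 0 and 1 reads in DMSO iPSC and 2, 4 and 5 in UNC iPSC. Tdrd9, a helicase with a Tudor domain, had 0 or 1 read per library without 3C, 1, 1 and 2 in DOX_3C and 2, 1 and 4 in DOX_3C_UNC. The ratio of the last 2 groups was 2.33 (0.593 to 10.9), so its step from silent to trace was within counting error. In iPSC it stayed at a trace level, from 0.315 to 0.672 CPM with DMSO and from 0.284 to 0.556 CPM with UNC.

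Piwil2, the PIWI protein that binds piRNAs in fetal germ cells, was at a trace level in every reprogramming group. It had 5, 1 and 3 reads in DOX, 11, 4 and 4 in DOX_UNC, 3, 7 and 2 in DOX_3C and 5, 10 and 4 in DOX_3C_UNC. The groups with and without UNC overlapped in both media. In iPSC Piwil2 reached 32, 34.0 and 28.6 CPM with DMSO and 31.6, 30.3 and 32.7 CPM with UNC, again overlapping. The other piRNA genes Tdrkh, Rnf17, Tex15 and Tdrd1 were not silent in any group and are described with the tests below.

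The synaptonemal complex and axis genes were shut in reprogramming except for Sycp1. Sycp1, the transverse filament protein, was at a trace level, with 6, 4 and 10 reads in DOX, 12, 6 and 7 in DOX_UNC, 2, 8 and 8 in DOX_3C and 3, 6 and 2 in DOX_3C_UNC. In iPSC it had 3.53, 3.50 and 2.50 CPM with DMSO and 3.45, 2.60 and 3.52 CPM with UNC. Neither pair of reprogramming groups nor the iPSC groups were separated by UNC. Sycp2 and Sycp3, of the axial element, had 0 to 2 reads in each reprogramming library. Sycp2 was barely expressed in iPSC, with 1.60, 0.905 and 1.12 CPM with DMSO and 1.02, 1.14 and 1.11 CPM with UNC. Sycp3 had 10.9, 11.1 and 13.0 CPM with DMSO and 7.47, 9.78 and 6.90 CPM with UNC, so all UNC libraries lay below all DMSO libraries. Hormad1 and Hormad2, HORMA-domain proteins that mark unpaired axes, had 0 to 2 reads per reprogramming library. Hormad1 had 6.34, 6.77 and 6.12 CPM in DMSO iPSC and 8.16, 8.20 and 7.87 CPM in UNC iPSC, with the UNC libraries above. Hormad2 had 14.7, 13.9 and 21.3 CPM with DMSO and 15.2, 15.7 and 17.8 CPM with UNC, within the DMSO range.

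The meiotic cohesin subunits differed from each other in reprogramming. Stag3 was expressed in all groups (below), whereas Smc1b was at a trace level, with 5, 6 and 4 reads in DOX, 10, 5 and 9 in DOX_UNC, 1, 4 and 5 in DOX_3C and 0, 4 and 1 in DOX_3C_UNC. Smc1b overlapped with and without UNC in both media. In iPSC it had 30.5, 32.4 and 46.0 CPM with DMSO and 36.8, 33.1 and 31.5 CPM with UNC, overlapping.

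Of the recombination and meiotic entry genes, Spo11, the enzyme that makes meiotic DNA breaks, had 0, 1 and 3 reads in DMSO iPSC and none in UNC iPSC, which allows up to 0.0423 CPM. Mei1, which is needed for those breaks, had no read in reprogramming and 1.01, 1.38 and 1.54 CPM with DMSO and 1.30, 0.893 and 1.48 CPM with UNC in iPSC. Meioc, which sustains the meiotic programme, had 1 to 9 reads in every reprogramming library. The iPSC groups overlapped for Mei1 and for Meioc, the latter with 12.8, 13.2 and 11.7 CPM with DMSO and 11.7, 12.1 and 10.6 CPM with UNC. Tex11, an X-linked gene for synapsis and crossing over, had 22, 10 and 7 reads in DOX and 22, 16 and 5 in DOX_UNC, then 19, 11 and 4 in DOX_3C and 15, 9 and 2 in DOX_3C_UNC. Replicates of 1 group differed more than the groups did. In iPSC Tex11 had 8.99, 7.64 and 4.87 CPM with DMSO and 8.37, 7.87 and 6.76 CPM with UNC.

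Of the transcription and chromatin genes, Dmrt1, the DM-domain factor of germ and Sertoli cells, went from no read in 12 reprogramming libraries to 36.4, 38.7 and 41.8 CPM in DMSO iPSC and 33.0, 33.7 and 32.2 CPM in UNC iPSC. All UNC libraries were below all DMSO libraries. Taf7l, a germ cell subunit of the general transcription machinery, had 0 or 1 read per reprogramming library, and in iPSC 1.81, 2.05 and 2.58 CPM with DMSO and 1.50, 1.50 and 1.76 CPM with UNC. Its iPSC groups did not overlap either, but neither gene passed the test (below). Brdt, the testis bromodomain protein, was at a trace level in DOX, DOX_UNC and DOX_3C and reached 1.10 ± 0.0855 CPM (SD, n = 3) in DOX_3C_UNC, just inside the expressed class. In iPSC Brdt had 2.1, 1.93 and 1.75 CPM with DMSO and 2.40, 2.07 and 1.90 CPM with UNC.

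The germline copies of housekeeping genes were mostly closed in reprogramming. Rpl10l, an autosomal retrocopy of the ribosomal protein gene Rpl10, had no read there and 13.4, 13.9 and 9.54 CPM with DMSO and 14.6, 12 and 10.2 CPM with UNC in iPSC. Tuba3a and Tuba3b, near-identical testis alpha-tubulin genes, had 1 read each over the 12 libraries. In iPSC Tuba3b had 0 to 3 reads per library. Reads shared with a near-identical copy may have been dropped or divided in the authors' counting, so values of Tuba3a, Tuba3b and Rpl10l are uncertain. Slc25a31, the ADP/ATP carrier of germ cells, was at a trace level in reprogramming with 0 to 10 reads per library. In iPSC it had 0.966, 0.787 and 0.625 CPM with DMSO and 1.14, 0.974 and 1.25 CPM with UNC. It was the only gene to change class between the iPSC groups, from trace to expressed, with a log2 difference of 0.50 ± 0.28 (SE; edgeR adjusted p = 0.505).

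The remaining germ cell genes followed the same pattern. Tex14, which keeps germ cells joined by intercellular bridges, had 0 to 9 reads in each reprogramming library, and in iPSC 107, 99.0 and 90.5 CPM with DMSO and 106, 97.0 and 96.9 CPM with UNC. Stk31, a kinase-like Tudor protein, had 0 to 2 reads, and in iPSC 9.41, 8.74 and 8.00 CPM with DMSO and 11.4, 8.97 and 6.58 CPM with UNC. The iPSC groups overlapped for both. Tex101, a germ cell surface protein, had 1 to 8 reads in each iPSC library and none in reprogramming.

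Only 7 of the 32 genes were measured highly enough in reprogramming to be tested across all genes: Stag3, Tdrkh, Tex15, Rnf17, Tdrd1, Brdt and Tex11. The test was limma on log2 of the normalised count plus 1, a scale that understates changes of low genes, and calls were made at an adjusted p below 0.05. Without 3C, none of the 7 passed for UNC, beside 0.607% of all 16138 genes tested, and 1 of the 7 had an unadjusted p below 0.05 in limma, beside 9.33% of all genes. The median difference of the 7 was -0.00 (log2), beside 0.00 over all genes. With 3C, none of the 7 passed for UNC either, beside 11.6% of all genes, and 3 had an unadjusted p below 0.05 in limma, beside 25.7%. The median was -0.06, beside -0.00. The difference between the UNC effects with and without 3C passed for none of the 7, beside 0.0620% of all genes, with no unadjusted p below 0.05 in limma. For these 3 comparisons edgeR and DESeq2 on the recovered reads, with the same filter, called 0 of the 7 as well. With the replicate number as a block, limma called 1 of the 7, Tex15 (below), for UNC with 3C, beside 17.8% of all genes. The other 25 genes did not pass the filter on low values. With no filter, 26 of the 32 could be fitted, and limma called 0 of them for UNC without 3C and 0 for UNC with 3C.

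Stag3, the meiotic STAG subunit of cohesin (ENSMUSG00000036928, chr5:138272514-138312397), had normalised counts of 159, 124.9 and 124.5 in DOX and 94.8, 92.1 and 75.0 in DOX_UNC. All UNC libraries were lower, yet the difference of -0.63 ± 0.20 (log2, SE) had an adjusted p of 0.226 in limma. With edgeR on the recovered reads and no filter it passed at an adjusted p of 0.0168, where 1.36% of 31642 genes were called. With 3C, Stag3 had 16.6, 22.2 and 23.9 in DOX_3C and 17.5, 18.2 and 13.3 in DOX_3C_UNC, which overlapped (-0.34 ± 0.20, limma adjusted p = 0.311). The 2 UNC effects differed by 0.30 ± 0.29 (limma adjusted p = 0.762).

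Tex15, a factor of piRNA-directed silencing in male germ cells, had normalised counts of 104, 87.7 and 86.4 in DOX and 82.0, 81.1 and 77.6 in DOX_UNC. With 3C it had 131.7, 93.3 and 93.4, and with 3C and UNC 93.2, 61.8 and 78.5. The UNC libraries were the lower ones in both media, with 3C by a margin of 0.1 only. In CPM the groups with 3C overlapped: DOX_3C_UNC replicate 1, at 6.32, lay above DOX_3C replicates 2 and 3, at 6.23 and 6.25. The differences were -0.20 ± 0.17 without 3C (limma adjusted p = 0.798) and -0.44 ± 0.17 with 3C (limma adjusted p = 0.103). With the replicate number as a block, the latter passed in limma at an adjusted p of 0.0361, when the genes called rose from 1880 to 2871 (17.8%).

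Tdrkh, a Tudor protein that holds PIWI proteins at mitochondria (ENSMUSG00000041912, chr3:94413243-94434854), had normalised counts of 136, 104.5 and 162.5 in DOX and 136.6, 134.8 and 125.0 in DOX_UNC. With 3C it had 35.6, 49.6 and 38.6 without UNC and 47.8, 57.0 and 61.9 with it. The groups with and without UNC overlapped in both media. With 3C, Tdrkh was higher with UNC in each of the 3 same-numbered pairs, by 0.43 ± 0.18 (limma adjusted p = 0.132, and 0.0948 with the replicate block). Rnf17, a Tudor protein that restrains piRNA production, had 35.6, 63.7 and 42.5 in DOX, 48.7, 51.5 and 58.9 in DOX_UNC, 68.8, 54.1 and 46.3 in DOX_3C and 59.4, 64.2 and 39.8 in DOX_3C_UNC. All 4 groups overlapped. Brdt had 8.6, 7.2 and 10.2 in DOX, 16.2, 7.7 and 8.0 in DOX_UNC, 10.7, 8.9 and 7.7 in DOX_3C and 17.5, 17.0 and 15.5 in DOX_3C_UNC. With 3C its UNC libraries were all higher (0.81 ± 0.34), but the limma adjusted p was 0.139. Tdrd1, a Tudor scaffold for PIWI proteins, had 19.6, 22.8 and 11.7 in DOX, 21.4, 12.1 and 20.5 in DOX_UNC, 11.9, 8.9 and 12.4 in DOX_3C and 9.3, 12.1 and 12.2 in DOX_3C_UNC. Its UNC differences were 0.00 ± 0.33 without 3C and 0.02 ± 0.33 with it.

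**Figure D4:**
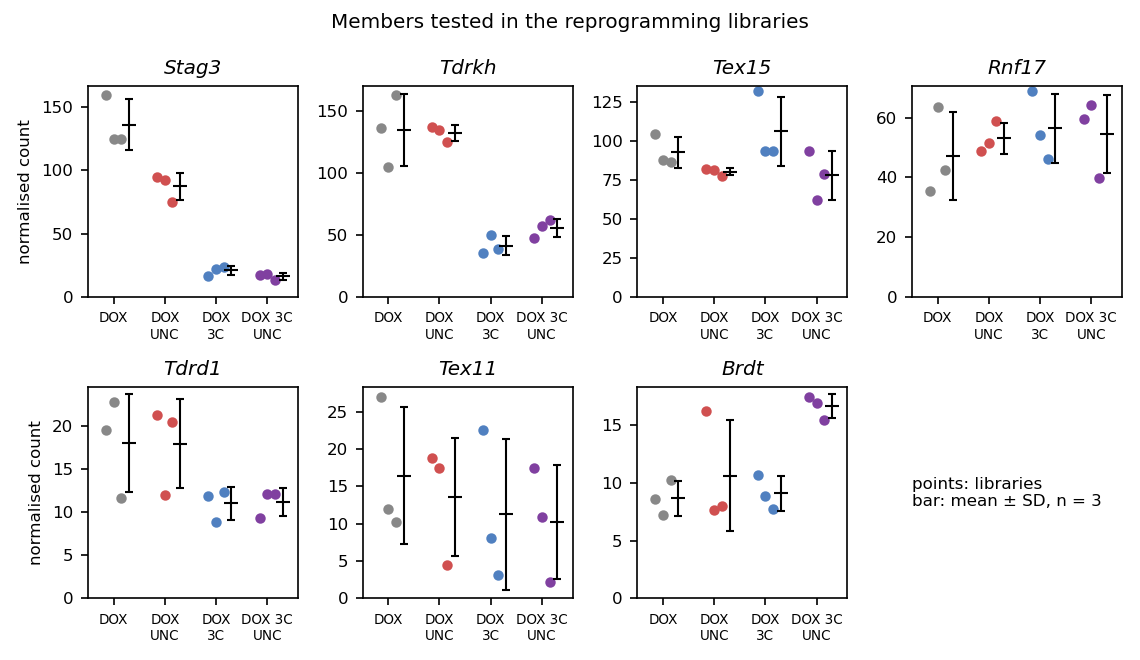
Normalised counts (y axis, from 0) of the 7 testable germline genes in the 12 reprogramming libraries; points are libraries and bars mean ± SD of 3. Stag3 and Tdrkh drop in both groups with 3C, and groups with and without UNC overlap in most panels.

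The 3C mixture, by contrast, went with a fall of Stag3 and Tdrkh. Without UNC, 2 of the 7 genes passed, both lower, beside 49.4% of all genes (24.7% lower). Stag3 fell from 136 ± 20.0 to 20.9 ± 3.83 normalised counts (mean ± SD, n = 3 per group), a log2 difference of -2.65 ± 0.20 (limma adjusted p = 5.61e-09). Tdrkh fell from 134 ± 29.1 to 41.3 ± 7.38, or -1.67 ± 0.18 (limma adjusted p = 3.65e-07). With UNC present, the same 2 genes passed, beside 47.4% (23.5% lower): Stag3 at -2.36 ± 0.20 (limma adjusted p = 2.77e-08) and Tdrkh at -1.24 ± 0.18 (limma adjusted p = 1.29e-05). At these call rates, 2 of 7 does not stand out from the background. Neither gene became silent: Stag3 kept 1.39 ± 0.263 CPM in DOX_3C and 1.08 ± 0.178 CPM in DOX_3C_UNC, and Tdrkh 2.75 ± 0.502 and 3.66 ± 0.410 CPM (SD, n = 3). In iPSC, Stag3 reached 88.4, 93.7 and 111 CPM with DMSO and 81.9, 88.3 and 100.4 CPM with UNC, the libraries overlapping. Tdrkh had 5.46, 5.16 and 5.71 CPM with DMSO and 4.87, 6.29 and 3.33 CPM with UNC, beside 8.66 ± 1.86 CPM (SD, n = 3) in DOX. In RefSeq 16 of the 32 genes overlap another gene, among them Stag3 (Gpc2 and Gal3st4), Tdrkh (Oaz3), Sycp3 (Chpt1) and Smc1b (Fam118a), and whether reads were counted by strand is not given, so reads of these neighbours cannot be told apart. Summed fibroblast markers were 7764 to 8615 CPM in DOX, 9539 to 9949 in DOX_UNC, 3178 to 3687 in DOX_3C and 5245 to 5711 in DOX_3C_UNC; their part in these results was not tested.

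In iPSC 27 of the 32 genes were tested with edgeR, and 1 changed with UNC, upward, beside 1.31% of all 17987 genes (1.27% upward). Of the 27, 5 had an unadjusted p below 0.05, beside 12.3% of all genes, and their median difference was -0.03 (log2), beside -0.01 over all genes. The gene called was Tuba3a (ENSMUSG00000067702, chr6:125278270-125286081), with 8.74, 7.16 and 7.46 CPM with DMSO and 13.2, 11.7 and 12.6 CPM with UNC. The groups did not overlap, and the log2 difference was 0.69 ± 0.11 (SE; edgeR adjusted p = 0.0118). Without UNC replicate 1 it was 0.66 and no longer passed (edgeR adjusted p = 0.0845). Sycp3 lay on the other side, at -0.52 ± 0.14 (edgeR adjusted p = 0.140); with DESeq2 it passed at an adjusted p of 0.0394, and with edgeR and no filter at 0.00283. Hormad1 differed by 0.34 ± 0.11 (edgeR adjusted p = 0.240), Dmrt1 by -0.23 ± 0.07 (edgeR adjusted p = 0.197) and Taf7l by -0.43 ± 0.22 (edgeR adjusted p = 0.455). Rnf17, at 170.5, 172 and 166 CPM with DMSO and 159, 164 and 152 CPM with UNC, differed by -0.09 ± 0.05 (edgeR adjusted p = 0.514). Piwil2, Rpl10l and Sycp1 each differed by 0.01 on the log2 scale. Tex15, at 25.2, 21.8 and 21.6 CPM with DMSO and 20.0, 18 and 21.7 CPM with UNC, and Tdrd1, at 2.39, 2.44 and 2.25 against 1.79, 2.60 and 2.18 CPM, overlapped between groups. Fibroblast markers were higher in the UNC iPSC, with 6 of 7 called, and summed to 1350 to 1689 CPM with DMSO and 2415 to 2452 CPM with UNC, while 0 of the 10 pluripotent markers were called by edgeR (2 had an unadjusted p below 0.05) and 0 by DESeq2, and 2 (Dppa2 and Tdgf1) by edgeR with no filter. The part of these markers' cells in the iPSC results was not tested.

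**Figure D5:**
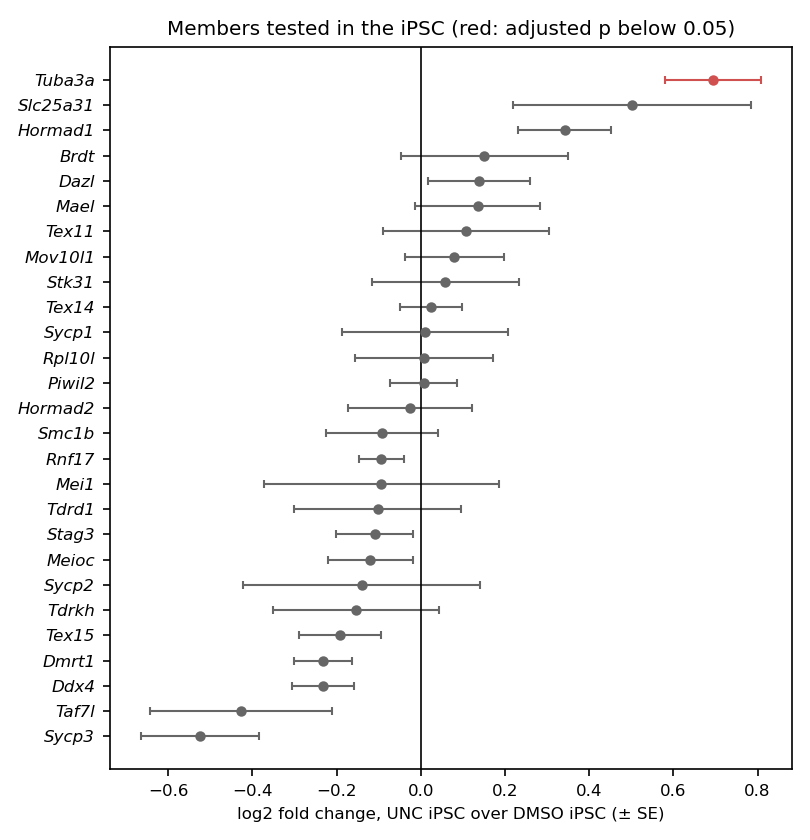
Log2 fold change of UNC iPSC over DMSO iPSC (x axis, ± SE, 3 libraries per group) for the 27 testable germline genes, sorted by value. Only Tuba3a, in red, has an adjusted p below 0.05, at 0.69; Sycp3 is lowest at -0.52.

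A further list of 50 germline genes, which shares no gene with the 32, was read the same way. In reprogramming 20 of them could be tested. By limma 0 passed for UNC without 3C (3 had an unadjusted p below 0.05; median 0.13, beside 0.00 over all genes), 0 by edgeR, and 2, Rec8 and Tcfl5, by DESeq2, by edgeR with no filter and by limma with the replicate block. UNC with 3C changed 3: the meiotic cohesin subunit Rec8 (0.58 ± 0.16, limma adjusted p = 0.0211) and Tex19.2 (1.88 ± 0.56, limma adjusted p = 0.0382) rose, and the testis transcription factor Tcfl5 fell (-1.24 ± 0.21, limma adjusted p = 0.000821). These 3 of 20 stand beside the 11.6% called over all genes. For UNC with 3C, DESeq2 called Rec8 and Tcfl5 but not Tex19.2. All 3 passed by edgeR, which added Ccnb1ip1, and by limma with the replicate block, which added Syce2. With no filter, edgeR called the 3 and both added genes. With 3C, 6 rose and 3 fell without UNC, and 6 rose and 5 fell with it. These totals lie near the 49.4% and 47.4% called over all genes (24.7% and 23.5% lower). In iPSC 40 were tested and 0 passed by edgeR (4 had an unadjusted p below 0.05) and 0 by DESeq2, while with no filter edgeR called Rec8 among 50.

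The genes of the silencing machinery stayed on. The list of 34 covers the E2F6 and MGA complex, H3K9 methyltransferases, DNA methyltransferases and their partners. It also holds the TET oxidases Tet1, Tet2 and Tet3, which act against DNA methylation. Of the 34 genes, 33 were expressed in each reprogramming group and 34 in each iPSC group. Of the 33 tested, 0 passed for UNC without 3C by limma (4 had an unadjusted p below 0.05), and 0 by edgeR and DESeq2, while Tet3 passed by edgeR with no filter and by limma with the replicate block. UNC with 3C lowered 7 and raised none, beside 11.6% of all genes called in either direction (median -0.11, beside -0.00 over all genes), by small steps: the complex subunit Mga by -0.30 ± 0.07 (limma adjusted p = 0.00614), the maintenance DNA methyltransferase Dnmt1 by -0.21 ± 0.05 (limma adjusted p = 0.00855), its cofactor Uhrf1 by -0.21 ± 0.05 (limma adjusted p = 0.00961) and the deubiquitinase Usp7 by -0.18 ± 0.05 (limma adjusted p = 0.0156). The rest of the 7 were Pcgf6, Tet1 and Tet3, so not all of them are silencing genes. For UNC with 3C, 11 passed by limma with the replicate block, beside 17.8% of all genes, but 4 (Dnmt1, Mga, Uhrf1 and Usp7) by limma with no filter. The same 7 passed by edgeR and by DESeq2, and 8 by edgeR with no filter. The share of all genes called lower is not given for UNC with 3C, so the direction has no background here. In iPSC 0 of 34 passed by edgeR (2 had an unadjusted p below 0.05), 1 (Dnmt3b) by DESeq2, 2 (Dnmt3b and Dnmt3l) by edgeR with the replicate block and 3 (with Dnmt3a) by edgeR with no filter. With 3C, 7 rose and 11 fell without UNC, and 3 rose and 15 fell with it, of 33 tested. The totals lie near the 49.4% and 47.4% called over all genes. Falls were more frequent than the 24.7% and 23.5% called lower over all genes, above all with UNC. The comparisons with and without 3C share groups, so their counts are not independent.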

How the data were processed

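RNA was profiled in 18 libraries from TruSeq stranded total RNA kits, per the labels' protocols. The tools listed, per the submitters' processing notes, are DESeq, HTSeq 0.5.4p3, SAMtools 1.8 and TopHat2 2.1.0, with mm10; settings and the strand of counting are not given in the sources used here. The deposited reprogramming table holds a signal, the read count divided by 1 factor per library, and 100% of its values were whole multiples of the library's step within 0.01 read, which gave back whole reads. The deposited iPSC table holds raw counts; its columns were matched by sample number, and replicate numbers of the DMSO libraries follow the titles, which disagree with the descriptions. In the reprogramming table, 2 columns match no listed RNA sample and were not used. CPM is reads per 1000000 reads in genes. The depth above sets the precision, and intervals and floors (95% exact; 3 reads) cover counting error only.

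Reprogramming values were tested with limma 3.58.1 (log2 of value + 1, trend, genes reaching 10 in 3 or more of the 12 libraries, 1 fit of 4 groups) and iPSC counts with edgeR 4.0.16 (quasi-likelihood, TMM, filterByExpr), in R 4.3.3, with Benjamini-Hochberg adjustment over all genes; both were tested on simulated data. Alternatives were another pseudocount, no filter, edgeR, DESeq2 1.42.0, a replicate block, other silence thresholds and each library left out. Deviations of same-numbered libraries correlated at 0.110 to 0.191 for UNC with 3C, 0.106 to 0.156 for 3C without UNC and 0.155 to 0.205 for 3C with UNC, so these were read as paired from the data; the labels do not say so. They correlated at 0.0940 to 0.223 for UNC without 3C, where all different-numbered pairs were negative (-0.194 to -0.0131). In iPSC they correlated at 0.0490 to 0.109, but the different-numbered pair of DMSO 2 and UNC 1 reached 0.0937. UNC without 3C could thus be read as paired too, while iPSC is unclear. All main tests left the replicate number out, and the block was an alternative only. Every one of the 32 genes is accounted for; those at 1 CPM or more in any group are given by library or range, and from the other lists the up to 4 called genes with the smallest p in a UNC comparison are named. The genes and lists were chosen with earlier results of these data known. Promoters and positions are from RefSeq GRCm38.p6, scanned with Python 3.11.15. The 10 H3K9me2 samples were not analysed here.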

Additional observations from a re-analysis of the deposited data

How the results depend on the processing

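Germline genes in this section are the 32 of the set, without the further list of 50. Silent genes in the 4 reprogramming groups numbered 14 to 17 below 0.05 CPM and 24 to 25 below 0.5 CPM. They numbered 16 to 18 with every library below 0.1 CPM and 17 to 19 with a library left out. In iPSC they numbered 0 (DMSO) and 1 (UNC) below 0.05 CPM or with every library below 0.1 CPM, 5 and 5 below 0.5 CPM, and 1 to 2 in UNC iPSC with a library left out. Genes called for UNC without 3C numbered 98, 430 by edgeR with no filter, 168 by DESeq2, 409 with the replicate block and 19 to 144 with a library left out; Stag3 was the 1 germline gene called, by edgeR with no filter only. For UNC with 3C they numbered 1880, 2871 with the replicate block (when 1 germline gene, Tex15, was called) and 1039 to 1917 with a library left out. For the interaction they numbered 10, 17 by edgeR, 417 by edgeR with no filter, 160 by DESeq2, 413 with the block and 0 to 70 with a library left out. In iPSC they numbered 236, 823 with no filter, 395 by DESeq2, 407 with the block by titles and 85 to 216 with a library left out; 2 germline genes (Tuba3a and Sycp3) were called with no filter and by DESeq2, and 0 to 1 with a library left out. With no filter, 3C with UNC called 4 germline genes, adding Smc1b (-1.83) and Ddx4 (-1.61), which have few reads. The replicate block changed no other call among the 32 genes, though it did change calls on the further list. Without DOX replicate 3, Tdrd1 passed for 3C without UNC (-0.89, limma adjusted p = 0.0421), and without DOX_UNC replicate 1, Brdt passed for 3C with UNC (0.99, limma adjusted p = 0.0336). The signs of small, uncalled differences turned. For UNC without 3C, Tdrd1 was -0.0091 by edgeR and -0.0072 by DESeq2, and with a library left out Tdrkh ranged from -0.17 to 0.15, Tdrd1 from -0.26 to 0.25, Brdt from -0.12 to 0.38 and Tex11 from -0.67 to 0.26. For UNC with 3C, Tex11 was 0.0014 by edgeR, and with a library left out Rnf17 ranged from -0.19 to 0.15, Tdrd1 from -0.11 to 0.14 and Tex11 from -0.72 to 0.63. For 3C without UNC, Brdt ranged from -0.051 to 0.18. The cause of these changes was not tested.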
